A study of Mus musculus with 51 samples.

Results

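*Olfr693*, *Olfr694*, *Olfr698* and *Olfr699* are 4 olfactory receptor (OR) genes that lie close together on mouse chromosome 7. They are 4 of the 1117 OR genes measured by pS6-IP-Seq in whole olfactory mucosa (51 libraries), and each was found by its symbol in every count table. They were chosen because they had been called higher after exposure to 2,5-dimethylpyrazine (2,5-DMP) in an earlier look at these same libraries, so their 2,5-DMP values are given here as a description, with no test. The 4 genes were also picked as neighbours on chromosome 7, so their closeness there is part of the choice. Their likeness in sequence is not free of it, since neighbouring ORs are often close relatives. The measurements that did not choose them are their reads after the other odors.

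ORs are G-protein-coupled receptors of olfactory sensory neurons (OSNs), and each mature OSN expresses 1 OR gene out of the whole repertoire. Firing neurons phosphorylate the ribosomal protein S6 (pS6). Immunoprecipitation of pS6 therefore pulls down ribosomes and mRNA preferentially from recently active cells, and the mRNA of an OR whose neurons were active takes a larger share of the OR reads. OR genes sit in clusters that grew by local duplication, so neighbours on a chromosome are often close relatives in sequence. 2,5-DMP is a pyrazine of female mouse urine. Male mouse urine holds the terpene (*E*)-β-farnesene, the thiol MTMT, which is (methylthio)methanethiol, and the dihydrothiazole SBT.

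All libraries came from C57BL/6J mice about 3 weeks old, of both sexes and with no sex given per library, that were habituated for 1 hr and then exposed for 1 hr to 10 μL of odor or diluent. The 10 odor groups received 1% 2,5-DMP, 100% (*E*)-β-farnesene, 100 μM or 10 mM MTMT, 0.01%, 1% or 100% (undiluted) SBT, 100 mM of the musk cyclopentadecanone (CPD), 77% dehydro-*exo*-brevicomin (DHB) or 1% β-caryophyllene. Each odor group holds 3 libraries (30 in all), and 7 groups of 3 diluent-exposed mice (21 in all) serve as controls. The 2,5-DMP, (*E*)-β-farnesene and 100 μM MTMT groups were set against the same 3 control mice, and the 1% and 100% SBT groups against another 3. The labels do not give the diluent of each control mouse, and the methods name water for most odors and ethanol for MTMT and CPD, so 1 set of shared controls stands against odors in both diluents. The tables hold OR genes only, so markers of other cells of the mucosa were not analysed here. OR reads per library ranged from 27301 to 160001 (median 93870), and the controls of 1% and 100% SBT were the shallowest group, at 27301, 44027 and 57154.

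The 4 genes span 118 kb of the minus strand (GRCm38, GENCODE M21). *Olfr693* (ENSMUSG00000051680) lies at chr7:106675005-106680584 and *Olfr694* (ENSMUSG00000064223) at chr7:106684980-106691814, the closest pair of the 4. *Olfr698* (ENSMUSG00000059087) lies at chr7:106749889-106755397 and *Olfr699* (ENSMUSG00000096714) at chr7:106787963-106793198, 32.6 kb apart. The gap of 58.1 kb between the pairs holds the intact ORs *Olfr695* and *Olfr697* and the pseudogene *Olfr696-ps1*. Each coding sequence lies in 1 exon and encodes 316, 315, 311 and 316 residues in the order of the genes.

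The 4 translated proteins were 78.1% (*Olfr698* and *Olfr699*) to 89.7% (*Olfr694* and *Olfr698*) identical to each other. Among 1104 OR proteins compared, 8 further ORs had a mean identity to the 4 of 75.0% (*Olfr706*) to 84.3% (*Olfr704*), and the next OR, *Olfr30* on chromosome 11, had 50.8%, against a median of 38.2% over the other ORs. These 8 relatives (*Olfr695*, *Olfr697*, *Olfr700*, *Olfr701*, *Olfr703*, *Olfr704*, *Olfr705* and *Olfr706*) all lie on chromosome 7 within 89.4 kb of 1 of the 4 genes, so the 12 ORs form a family of neighbours. The closest relative outside the 4 was *Olfr700* for *Olfr693* (81.3%), *Olfr704* for *Olfr694* (94.3%), *Olfr704* for *Olfr698* (86.5%) and *Olfr705* for *Olfr699* (81.3%). *Olfr694* was thus closer to *Olfr704* than to any of the other 3 genes. Of 311 aligned positions without gaps, 147 carried the same residue in all 12 proteins and 220 the same residue in the 4. At 0 of these 220 positions was the residue of the 4 absent from all 8 relatives, so no position sets the 4 apart from the rest of the family. *Olfr694* alone differed from the other 3 genes at 7 positions, and *Olfr704* shared the residue of *Olfr694* at 6 of them.

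**Figure D1:**
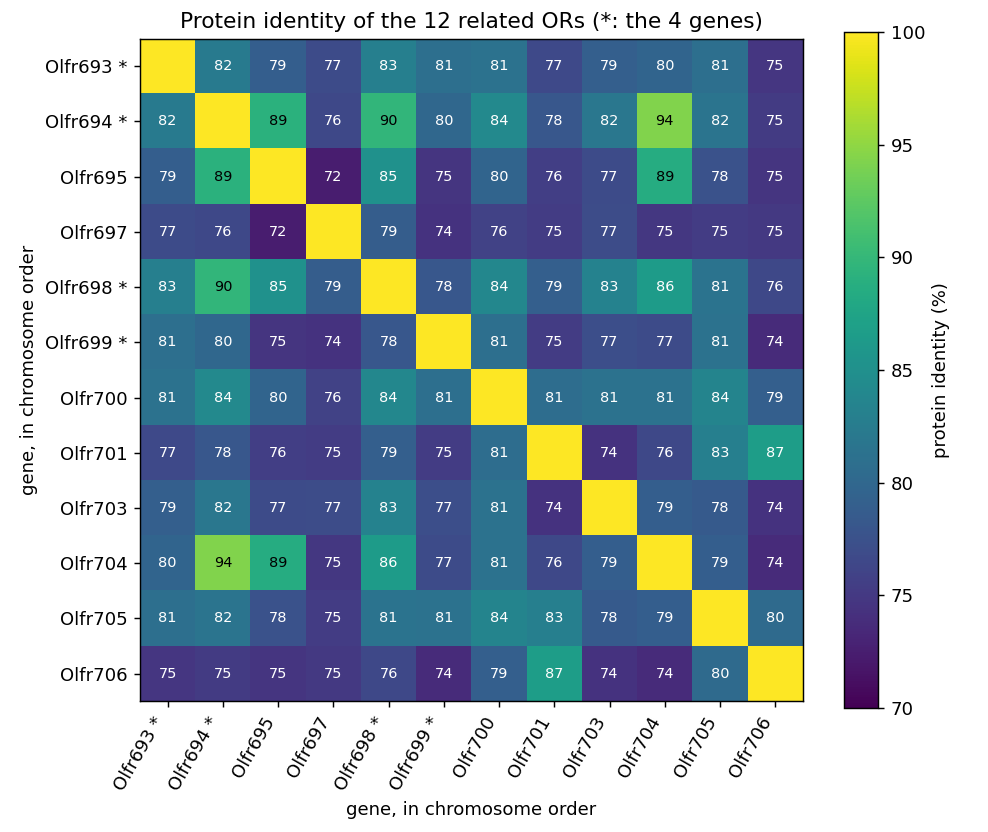
Protein identity (%) between the 12 ORs of the chromosome 7 family, in chromosome order on both axes, with the 4 genes marked by an asterisk. The 4 genes are 78.1% to 89.7% identical to each other, and the brightest cell off the diagonal is *Olfr694* with *Olfr704* at 94.3%.

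Coding stretches of 60 bases are shown to let the 4 genes be compared with *Olfr704*, the closest relative, and with *Olfr695*, which lies between them. Among windows of 20 codons, the first set is the one where the 4 genes were most alike (6 of 60 bases vary), and capitals mark bases that differ from *Olfr693*. It covers codons 183 to 202 in all 6 genes, and all sequences are GRCm38, written 5′ to 3′ along the gene.
Olfr693, chr7:106677879-106677938, minus strand: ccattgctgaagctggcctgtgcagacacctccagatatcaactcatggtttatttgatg
Olfr694, chr7:106689124-106689183, minus strand: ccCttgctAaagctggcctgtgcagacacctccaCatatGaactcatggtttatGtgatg
Olfr698, chr7:106752781-106752840, minus strand: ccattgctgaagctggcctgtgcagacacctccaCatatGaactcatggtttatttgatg
Olfr699, chr7:106790394-106790453, minus strand: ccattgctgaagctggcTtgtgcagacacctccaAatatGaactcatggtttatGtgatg
Olfr704, chr7:106865528-106865587, plus strand: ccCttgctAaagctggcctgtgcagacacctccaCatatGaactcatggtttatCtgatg
Olfr695, chr7:106714074-106714133, minus strand: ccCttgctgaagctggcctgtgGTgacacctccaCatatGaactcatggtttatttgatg

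The second set is the window where the 4 genes differed most (28 of 60 bases vary), at codons 134 to 153, with capitals again at bases that differ from *Olfr693*. Here *Olfr694* and *Olfr698* each differed from *Olfr693* at 19 bases, *Olfr699* at 16, *Olfr704* at 20 and *Olfr695* at 19.
Olfr693, chr7:106678026-106678085, minus strand: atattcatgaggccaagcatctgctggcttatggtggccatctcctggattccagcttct
Olfr694, chr7:106689271-106689330, minus strand: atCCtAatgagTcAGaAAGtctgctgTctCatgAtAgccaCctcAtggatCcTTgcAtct
Olfr698, chr7:106752928-106752987, minus strand: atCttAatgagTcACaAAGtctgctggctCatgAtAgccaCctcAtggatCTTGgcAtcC
Olfr699, chr7:106790541-106790600, minus strand: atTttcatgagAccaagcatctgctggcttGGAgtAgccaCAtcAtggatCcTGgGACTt
Olfr704, chr7:106865381-106865440, plus strand: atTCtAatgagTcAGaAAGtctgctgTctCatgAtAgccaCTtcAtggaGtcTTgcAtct
Olfr695, chr7:106714221-106714280, minus strand: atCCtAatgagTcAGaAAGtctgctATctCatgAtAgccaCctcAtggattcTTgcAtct

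After 1% 2,5-DMP, which chose the genes, all 4 had their highest mean share of OR reads among the 17 groups, and in each of them the 3 odor libraries lay above the 3 control libraries, as for 6.26% of all ORs tested. *Olfr693* took 0.881%, 0.767% and 0.693% of OR reads after 2,5-DMP and 0.189%, 0.175% and 0.151% in the controls. Its means were 0.780% ± 0.0947 and 0.171% ± 0.0192 (SD, n = 3 each), a log2 fold change of 2.16 (SE 0.25). *Olfr698* took 0.353%, 0.263% and 0.255% after 2,5-DMP and 0.0863%, 0.0600% and 0.0924% in the controls, a log2 fold change of 1.84 (SE 0.26). *Olfr694* took 0.380%, 0.196% and 0.184% against 0.0688%, 0.0809% and 0.0851%, a log2 fold change of 1.67 (SE 0.29). Replicate 1 stood above the other two 2,5-DMP libraries, and without it the log2 fold change of *Olfr694* was 1.19. *Olfr699*, the least abundant, took 0.0863%, 0.0732% and 0.0564% (81, 84 and 84 reads) against 0.0128%, 0.0272% and 0.0130% (8, 34 and 16 reads), a log2 fold change of 1.955 (SE 0.35). Together the 4 genes held 1.40% ± 0.269 (SD, n = 3) of OR reads after 2,5-DMP and 0.347% ± 0.00855 (SD, n = 3) in the controls. In bulk tissue, more active OSNs of a type and more RNA per OSN cannot be told apart.

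**Figure D2:**
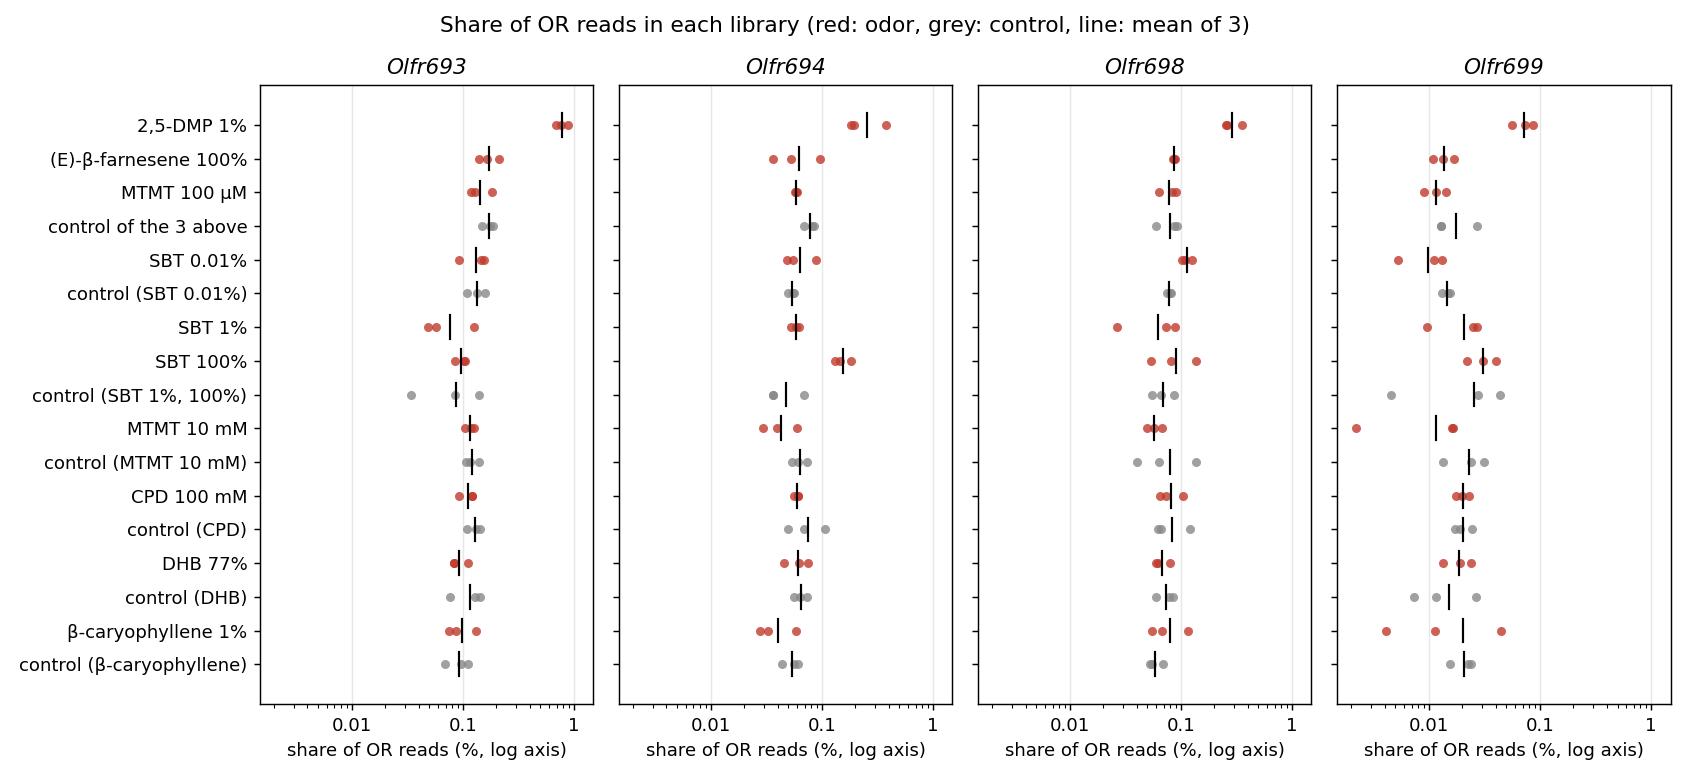
Share of OR reads (%, log axis) of the 4 genes in each of the 51 libraries, by group, with odor libraries in red, control libraries in grey and the mean of 3 as a line. The 2,5-DMP libraries stand apart in all 4 panels, and *Olfr694* has a second high group, 100% SBT at 0.132% to 0.182%, above its controls at 0.0363% to 0.0696%.

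The 2,5-DMP comparison called 9 of 1070 ORs (0.841%, all higher, edgeR quasi-likelihood test with Benjamini-Hochberg adjustment at 0.05), and the 4 genes are among them by choice. The other 5 were *Olfr502* (2.05), *Olfr376* (1.98), *Olfr1012* (1.88), *Olfr1013* (1.76) and *Olfr491* (1.25), as log2 fold changes. Just inside the threshold lay *Olfr491* (SE 0.27), with *Olfr699* the nearest of the 4 genes, and just outside *Olfr478* (1.42, SE 0.34) and *Olfr1014* (1.40, SE 0.35). The 20 other ORs within 500 kb of the 4 genes held no call, and their median log2 fold change was -0.02, against 0.01 over all ORs. That of the 8 relatives among them was 0.35. Of the ORs between the 4 genes, *Olfr697* took 0.0522%, 0.0906% and 0.0517% after 2,5-DMP and 0.0416%, 0.0152% and 0.0284% in the controls (log2 fold change 1.201, SE 0.36), so that its groups did not overlap. It was outside the threshold in the unpaired fit and inside it with the replicate number as a block, where 17 ORs were called. *Olfr695*, which is 89.2% identical to *Olfr694* and 85.2% to *Olfr698*, had 0.243% ± 0.0209 after 2,5-DMP and 0.254% ± 0.0716 in the controls (SD, n = 3 each; log2 fold change -0.10, SE 0.23). *Olfr704*, the closest relative of *Olfr694*, had 0.0660% ± 0.00903 and 0.0434% ± 0.00955 (log2 fold change 0.55, SE 0.28), also without overlap.

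**Figure D3:**
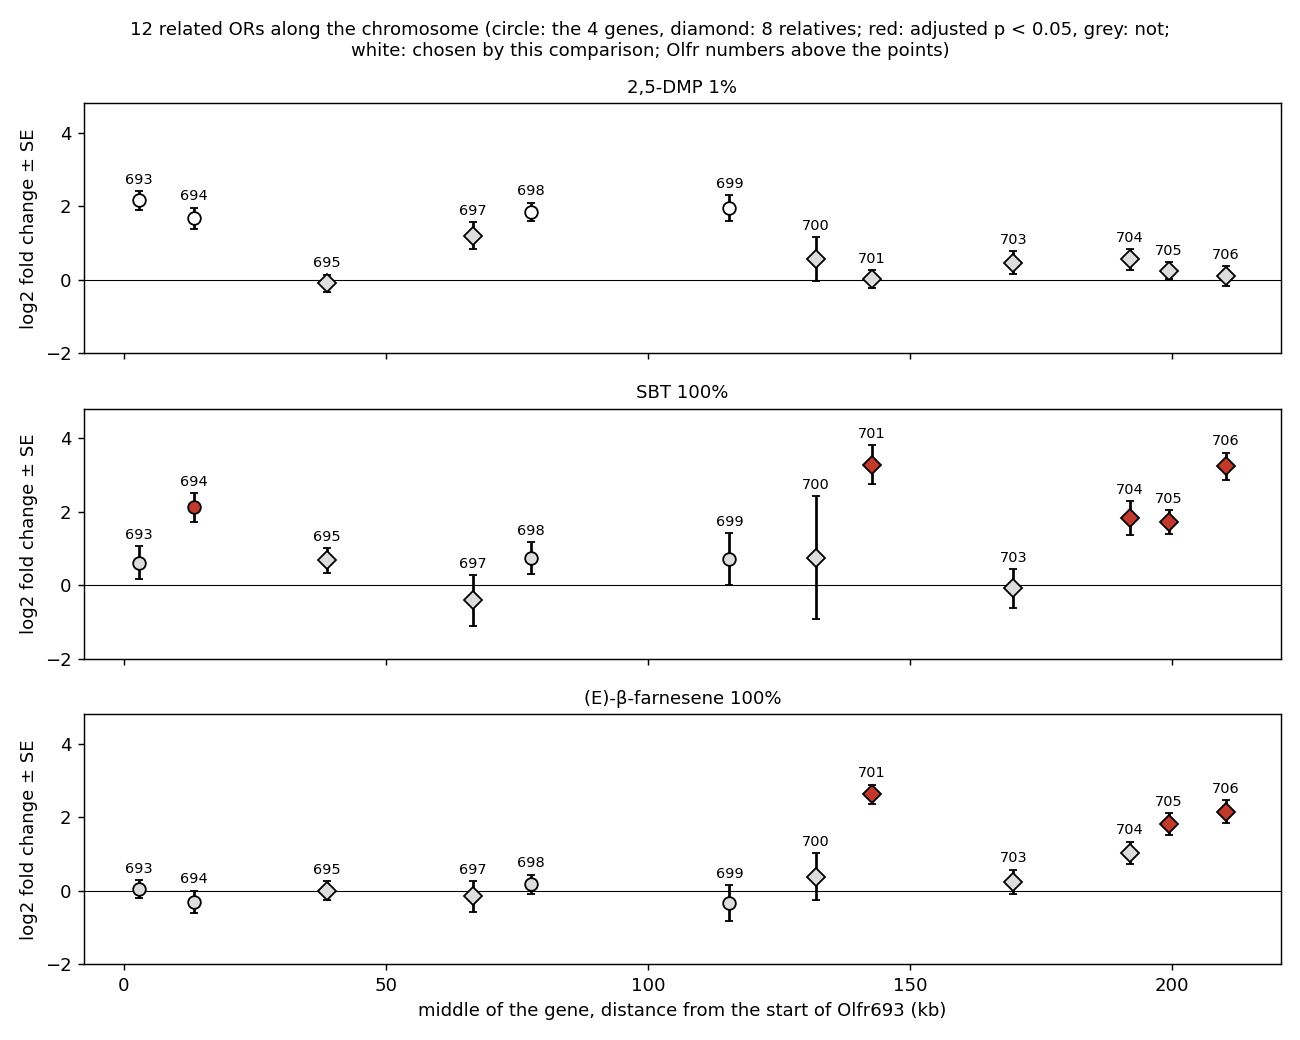
log2 fold change of odor over control (± SE, 3 libraries in each group) of the 12 ORs of the family against distance in kb from the start of *Olfr693*, after 2,5-DMP, 100% SBT and (*E*)-β-farnesene. Circles are the 4 genes and diamonds the 8 relatives, red marks an adjusted p under 0.05, and white marks the genes chosen by the comparison; *Olfr694* at 2.12 is the red circle after 100% SBT, and *Olfr701*, *Olfr705* and *Olfr706* are red in both lower panels.

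Differential expression analysis of the other 9 odors asked whether the 4 genes also changed where they had not been chosen. Of 36 such tests, 1 passed: *Olfr694* rose after 100% SBT, and 0 of the other 35 had an unadjusted p under 0.05. *Olfr694* took 0.147%, 0.132% and 0.182% of OR reads (120, 138 and 105 reads) after 100% SBT and 0.0363%, 0.0367% and 0.0696% (16, 21 and 19 reads) in the controls. Every odor library was above every control library, as for 13.3% of all ORs tested there, and the means were 0.154% ± 0.0259 and 0.0476% ± 0.0191 (SD, n = 3 each). The log2 fold change was 2.12 (SE 0.39, edgeR quasi-likelihood adjusted p = 0.00217), and it was past 0.05 in all 14 fits run, with a log2 fold change from 1.73 to 2.43. This comparison called 120 of 1050 ORs (11.4%), of which 112 (10.7%) were higher, so *Olfr694* was 1 of 4 genes in a comparison where about 1 in 10 ORs was called higher.

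The scaling between libraries touches the size of the change in *Olfr694*. Without TMM factors the median OR changed by -0.47 on the log2 scale, against -0.08 with them, and the calls split into 85 higher and 42 lower (66.9% higher) in place of 112 and 8 (93.3% higher). *Olfr694* changed by 1.73 without the factors. Its distance above the median OR was 2.19 without them and 2.20 with them. The factors shift all ORs of a library alike, so this distance can hardly move and does not test the scaling. The titles of the 1% and 100% SBT libraries and their controls carry 1 prefix for replicates 1 and 2 and another for replicate 3. Within each number the share of *Olfr694* after 100% SBT was 4.05, 3.59 and 2.62 times that of the control.

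*Olfr693*, *Olfr698* and *Olfr699* did not pass the test after 100% SBT. *Olfr693* took 0.0845%, 0.105% and 0.103% against 0.0341%, 0.0857% and 0.139% in the controls, and the groups overlapped (log2 fold change 0.61, SE 0.45, adjusted p = 0.517). *Olfr698* took 0.0809%, 0.0536% and 0.137% against 0.0545%, 0.0875% and 0.0659% (0.75, SE 0.43, adjusted p = 0.37). *Olfr699* rested on 18 to 32 reads after 100% SBT and on 2 to 16 reads in the controls (0.71, SE 0.70, adjusted p = 0.641). The 95% intervals of these log2 fold changes, from the standard errors and degrees of freedom of the fit (13.2), were -0.36 to 1.58 for *Olfr693*, -0.18 to 1.67 for *Olfr698* and -0.79 to 2.22 for *Olfr699*. That of *Olfr694* was 1.27 to 2.97 and overlapped all 3.

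*Olfr694* was set against the other 3 genes, by a choice made after seeing the data, through ratios of reads inside each library, which no scaling between libraries can move. The ratio of *Olfr694* to *Olfr693* reads was 1.25 to 1.78 after 100% SBT and 0.429 to 1.07 in the controls, with no overlap (exact permutation test, two-sided, p = 0.1, the smallest that 3 against 3 libraries allow). The ratio to *Olfr698* reads was 1.33 to 2.46 against 0.42 to 1.06, again with no overlap (exact p = 0.1). The ratio to *Olfr699* reads was 4.31 to 6.67 against 1.31 to 8.0, and these overlapped (exact p = 0.4). Adjusted over the 3 ratios the p-values were 0.15, 0.15 and 0.4, and since this permutation test cannot go below 0.1 with 3 against 3 libraries, it could not have passed 0.05 whatever the ratios. The ratio of *Olfr694* to *Olfr704* reads was 1.42 to 1.78 after 100% SBT and 0.889 to 2.10 in the controls (exact p = 0.7). At 0.01% SBT, where *Olfr694* itself did not pass, its ratios to *Olfr699* (4.89 to 9.20 against 3.25 to 4.22) and to *Olfr704* (1.24 to 2.87 against 1.14 to 1.19) also did not overlap with the controls (exact p = 0.1 each), so separation of this kind was not particular to the highest dose. How often ratios of other ORs separate in this way was not counted. In shares, 33.6% of all ORs tested did not overlap in either direction after 100% SBT, and 7.18% after 0.01% SBT.

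The 3 doses of SBT allow the change in *Olfr694* to be followed. At 0.01% its shares were 0.0550%, 0.0893% and 0.0482% against 0.0554%, 0.0557% and 0.04995% in that experiment's own controls (log2 fold change 0.26, SE 0.31, adjusted p = 0.999). At 1% they were 0.0531%, 0.0588% and 0.0628%, inside the range of the controls (0.45, SE 0.52, adjusted p = 0.994). The 3 libraries at 100% were all above the 3 at 1%, as for 11.8% of all ORs tested there. The difference passed the edgeR test (1.68, SE 0.40, adjusted p = 0.0116), in a contrast that called 80 of 1063 ORs (7.53%), 76 of them higher (7.15%). Without 100% SBT replicate 3 that adjusted p was 0.0615, and without TMM factors 0.0545. In 1 fit of all 51 libraries, chosen after seeing the data, the response to 100% exceeded that to 0.01%, each against its own controls, by 1.90 (SE 0.47, adjusted p = 0.00471), and the response to 1% exceeded it by 0.23 (SE 0.48, adjusted p = 0.979). None of the other 3 genes passed in the contrast of 100% with 1% (log2 differences of 0.60, 0.80 and 0.86 for *Olfr693*, *Olfr698* and *Olfr699*, adjusted p = 0.625, 0.47 and 0.637).

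**Figure D4:**
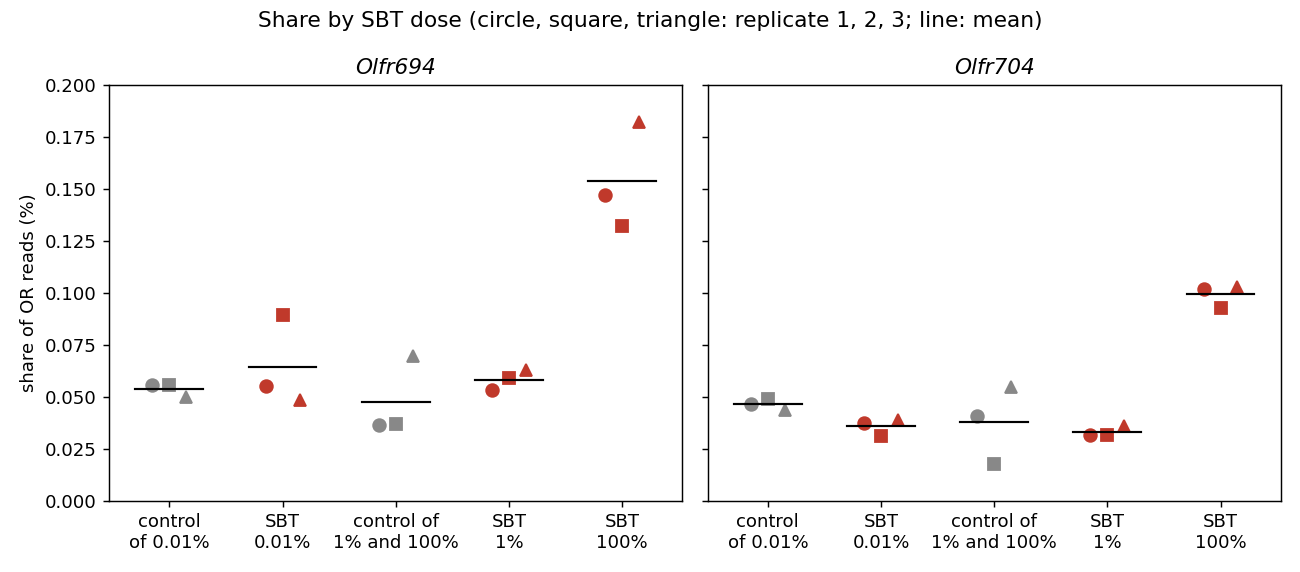
Share of OR reads (%) of *Olfr694* and of its closest relative *Olfr704* in the SBT libraries (red) and their controls (grey), with a symbol for each replicate number and the mean of 3 as a line. In both panels the 3 libraries at 100% lie above all others, with means of 0.154% and 0.0990%, while those at 0.01% and 1% lie among or near the controls.

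Of the 8 relatives, 4 rose after 100% SBT, where 10.7% of all ORs were called higher, and 3 of those also after (*E*)-β-farnesene. After 100% SBT 5 of the 12 ORs rose (median log2 fold change 0.75, against -0.08 over all ORs): *Olfr694* and its relatives *Olfr701* (3.27, SE 0.53, adjusted p = 0.000931), *Olfr706* (3.23, SE 0.38, adjusted p = 0.000131), *Olfr704* (1.83, SE 0.46, adjusted p = 0.0163) and *Olfr705* (1.72, SE 0.32, adjusted p = 0.00204). The controls of *Olfr701* held 3, 37 and 10 reads. At 1% SBT *Olfr701* (1.84, SE 0.61) and *Olfr705* (1.36, SE 0.41) also lay above all their controls, as for 3.74% of all ORs tested. Neither was called there. *Olfr704*, whose shares were 0.102%, 0.0928% and 0.103% against 0.0409%, 0.0175% and 0.0549%, lost the call at a similar log2 fold change without 100% SBT replicate 1 (1.81, adjusted p = 0.0675) and without 100% SBT replicate 3 (1.86, adjusted p = 0.0609), and at a lower one without TMM factors (1.44, adjusted p = 0.0573). After (*E*)-β-farnesene 3 of the 12 rose (median 0.21, against -0.03): *Olfr701* (2.62, SE 0.26, adjusted p = 1.26e-06), *Olfr706* (2.15, SE 0.31, adjusted p = 0.000203) and *Olfr705* (1.82, SE 0.29, adjusted p = 0.000626). That comparison called 19 of 1071 ORs (1.77%), and the log2 fold changes of the 4 genes in it were 0.05 for *Olfr693*, -0.30 for *Olfr694*, 0.18 for *Olfr698* and -0.33 for *Olfr699* (each adjusted p = 0.992). It shares its control mice with the 2,5-DMP comparison, so a low or high control value enters both. *Olfr695*, *Olfr697*, *Olfr700* and *Olfr703* passed in none of the 10 comparisons. *Olfr694* was the 1 of the 4 genes called after 100% SBT. The call after 2,5-DMP chose the 4, and 0 of the 8 relatives was called there, so no relative could be called after both odors.

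Reads that cannot be told apart touch *Olfr694* more than the other 3 genes. Of its 5219 distinct stretches of 50 bases, 339 (6.50%) also occur in another annotated gene, among them 116 in *Olfr704*, 60 in *Olfr695* and 16 in *Olfr706*. The pseudogene Gm44857 also lies within *Olfr694* on the other strand, and libraries of this kind do not keep the strand. The corresponding shares were 0.13% for *Olfr693*, 0.12% for *Olfr698* and 1.53% for *Olfr699*. From the other side, 2.09% of the stretches of *Olfr704*, 1.54% of those of *Olfr695* and 0.32% of those of *Olfr706* occur in *Olfr694*. Their part in the change of *Olfr694* was not tested.

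In the 7 remaining comparisons none of the 4 genes passed the test. The background of calls was 3 of 1068 ORs (0.281%) after 100 μM MTMT, 5 of 1072 (0.466%) after 0.01% SBT, 9 of 1043 (0.863%) after 1% SBT and 6 of 1064 (0.564%) after DHB. It was 0 of 1054 (0%) after 10 mM MTMT, 0 of 1050 (0%) after CPD and 0 of 1048 (0%) after β-caryophyllene by edgeR, where DESeq2 called 15, 1 and 0 ORs and 69, 40 and 51 ORs had an unadjusted p under 0.05. Over the 35 tests that did not pass, log2 fold changes ran from -0.70 (*Olfr699*, 10 mM MTMT, SE 0.69) to 0.75 (*Olfr698*, 100% SBT). In 3 of these 35 the odor and control libraries did not overlap. *Olfr698* took 0.103%, 0.127% and 0.110% after 0.01% SBT, above its controls at 0.0809%, 0.0746% and 0.0807%, with a log2 fold change of 0.55 (SE 0.27, adjusted p = 0.999). In that comparison 3.08% of all ORs tested lay above their controls in the same way and 7.18% in either direction. *Olfr699* took 0.0112%, 0.0130% and 0.00524% (18, 13 and 5 reads), below its controls at 0.0131%, 0.0149% and 0.0154% (-0.52, SE 0.59, adjusted p = 0.999). *Olfr694* had 0.0589% ± 0.00159 after 100 μM MTMT, below the 0.0782% ± 0.00846 of the controls it shares with 2,5-DMP (SD, n = 3 each; -0.44, SE 0.25, adjusted p = 0.955), where 8.61% of ORs did not overlap.

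**Figure D5:**
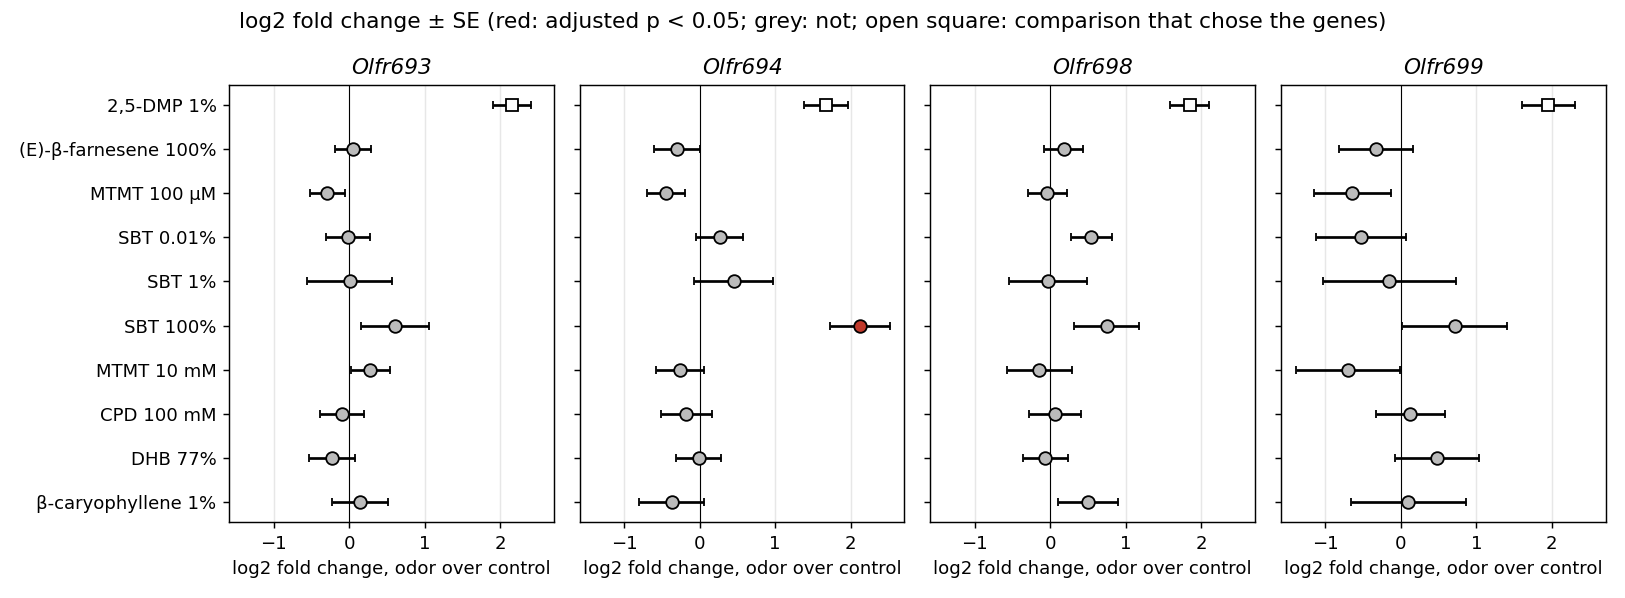
log2 fold change of odor over control (± SE, 3 libraries in each group) of the 4 genes in the 10 comparisons. Open squares mark 2,5-DMP, which chose the genes (1.67 to 2.16), red the adjusted p under 0.05, which *Olfr694* reached after 100% SBT (2.12), and grey the values that did not pass, from -0.70 to 0.75.

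The mean levels of the 4 genes also differed among the diluent-exposed mice, in pS6-precipitated reads rather than total RNA. No test was run on this. Over the 21 control libraries, and per kb of exon so that genes can be compared, *Olfr693* had 30.2 ± 9.01 reads per kb per 100000 OR reads (SD, n = 21; lowest 8.49, median 31.9, highest 47.0), *Olfr698* 18.6 ± 5.59, *Olfr694* 11.8 ± 3.15 and *Olfr699* 4.66 ± 2.16. The median OR had 14.2 on this scale, and the ranks among 1117 ORs were 280, 449, 621 and 903. The ranges of neighbours in this order overlapped, with 10.1 to 33.7 for *Olfr698*, 6.89 to 20.4 for *Olfr694* and 1.08 to 10.5 for *Olfr699*. After 2,5-DMP the order was kept on the same scale, at 194, 72.1, 48.1 and 17.2, and *Olfr693* ranked 21 of 1117. *Olfr699* was the gene with the least depth behind it: its count in single control libraries went down to 2 reads of 44027, a share of 0.00454% with a 95% Wilson interval of 0.00125% to 0.0166%, which covers counting error only.

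Outside 2,5-DMP, the groups ranked differently for each gene. The second highest of the 17 group means was (*E*)-β-farnesene for *Olfr693* (0.172% ± 0.0354, against 0.171% ± 0.0192 in its controls), 100% SBT for *Olfr694* (0.154% ± 0.0259), 0.01% SBT for *Olfr698* (0.113% ± 0.0125) and 100% SBT for *Olfr699* (0.0309% ± 0.00896; SD, n = 3 each). Of these, *Olfr694* lay beyond the spread of the next group, the controls of 2,5-DMP, at 0.0782% ± 0.00846. The control mean of *Olfr693* in those same mice (0.171%) was the highest of its 7 control means, which otherwise ran from 0.0863% to 0.135%, so levels set across experiments carry differences between experiments as well.

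The likeness of patterns was measured as Pearson's r of group mean log2(reads per 100000 OR reads + 5) over the 17 groups, among 1015 ORs tested in all 10 comparisons. It is given as a description, since some groups share controls and 1 of the groups chose the genes. The labels do not name sequencing runs. The 3 most alike ORs were *Olfr698* (0.91), *Olfr1013* (0.81) and *Olfr968* (0.79) for *Olfr693*, and *Olfr693* (0.91), *Olfr1013* (0.83) and *Olfr1014* (0.80) for *Olfr698*. They were *Olfr502* (0.86), *Olfr173* (0.85) and *Olfr699* (0.83) for *Olfr694*, and *Olfr694* (0.83), *Olfr32* (0.73) and *Olfr502* (0.72) for *Olfr699*. Leaving out the 2,5-DMP group, r over the 16 others was 0.55 for *Olfr693* with *Olfr698*, 0.14 for *Olfr693* with *Olfr694*, 0.36 for *Olfr694* with *Olfr698*, 0.56 for *Olfr694* with *Olfr699*, -0.43 for *Olfr693* with *Olfr699* and -0.22 for *Olfr698* with *Olfr699*. With *Olfr694*, *Olfr173* had an r of 0.855 and *Olfr502* 0.78 over the 16 groups. With *Olfr693*, *Olfr968* had 0.75 and *Olfr1013* 0.09. With *Olfr698*, *Olfr1013* had 0.17 and *Olfr1014* 0.15. With *Olfr699*, *Olfr502* had 0.52 and *Olfr32* 0.32. The order over the 17 groups thus rests in part on the 2,5-DMP group, which chose the genes.

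Of the 9 ORs called after 2,5-DMP, 4 (44.4%) were also called higher after 100% SBT, where 10.7% of all ORs tested were called higher. They make up 3.57% of the 112 called there, and these experiments share no control mice. *Olfr694* was the 1 of them from the chromosome 7 family, and the others were *Olfr376* (log2 fold change after 100% SBT 2.54, SE 0.31, adjusted p = 0.000141), *Olfr502* (2.06, SE 0.42, adjusted p = 0.00432) and *Olfr1012* (1.51, SE 0.41, adjusted p = 0.028). *Olfr1013* (0.39, SE 0.53, adjusted p = 0.761) and *Olfr491* (0.57, SE 0.34, adjusted p = 0.394) did not pass after 100% SBT. The 9 ORs hold the 4 genes by choice, and the overlap of the 2,5-DMP and 100% SBT calls was not tested.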

How the data were processed

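Ribosome-bound mRNA precipitated with anti-pS6 from whole olfactory mucosa was sequenced by the study in 51 libraries of 1 mouse each (SMART-Seq v4 and Nextera XT, which keep no strand). The deposited values are expected counts, made by the authors with STAR and RSEM on the mouse genome GRCm38.p6 with GENCODE M25 genes, and they cover 1117 OR genes only. Such estimates need not be whole and were rounded here. Columns of the authors' own comparisons (fold changes and p-values) were not used, nor were 6 columns of counts that match no sample. Groups came from the labels.

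Each odor group was tested against its own controls, with 100% SBT also set against 1% SBT, by edgeR 4.0.16 (R 4.3.3) quasi-likelihood tests with TMM factors over ORs having at least 10 reads in the libraries compared, with Benjamini-Hochberg adjustment at 0.05. SE is the log2 fold change over the square root of F. Shares are percent of OR reads. Alternatives were DESeq2 1.42.0, no TMM factors, other filters, a likelihood ratio test, a replicate block, a single fit of all libraries and leaving out each library. The members, the neighbours within 500 kb, the related ORs and the tests were chosen with earlier results of these data known. The genes named are the 4, their family of 12, the ORs called after 2,5-DMP or next to its threshold and the 3 ORs most alike to each of the 4. Within-library ratios, the 51-library dose difference, the family counts and the 500 kb limit on neighbours were added after seeing the data.

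Proteins were translated from GENCODE M21 coding sequences, since a RefSeq protein table was not used here, and aligned with Biopython 1.88 and MAFFT 7.526. The paper describes the mice as littermates, with odor and diluent given to different mice of a litter. The labels do not say that replicate numbers mark litters, so the main fits were unpaired and the replicate block was an alternative. Same-numbered libraries deviated together (every r above 0.1) in 6 of 10 comparisons, 2,5-DMP and 100% SBT among them. Replicate pairs differed by more than sampling noise (chi-square per degree of freedom 5.22 to 28.0), so none was counted as 1 sample. Precision is limited by OR reads of 27301 to 160001 per library and 3 mice per group, and Wilson intervals (95%) cover counting error only. The fits were tested on simulated data with changes drawn evenly higher and lower. The mostly higher calls after 100% SBT were thus not simulated.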

Additional observations from a re-analysis of the deposited data

Results flagged for a closer look

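The change of *Olfr694* differed between doses of SBT. All 3 libraries at 100% SBT were above the 3 at 1%, as for 11.8% of all ORs tested there. Between 100% and 1% SBT the log2 difference was 1.68 (edgeR adjusted p = 0.0116). Between the responses to 100% and 0.01% SBT, each against its own controls, it was 1.90 (adjusted p = 0.00471), and these experiments share no mice, so dose and experiment cannot be told apart in that difference. Groups of 3 libraries were not tested for single outlying libraries.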

How the results depend on the processing

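The count of the 4 genes past the threshold was unchanged or within 1.5 times in 143 of 145 alternative settings. Most of these settings say little. They include 13 of 2,5-DMP, which chose the genes, and those of 8 odors where the count was 0 in every setting. The 2 settings that moved were both in the contrast of 100% with 1% SBT. *Olfr694* after 100% SBT was called in all 14 settings, and with the replicate block its log2 fold change was 2.14 (edgeR adjusted p = 0.000923). The count in the contrast of 100% with 1% SBT was 0 without TMM factors and ranged from 0 to 1 when single libraries were left out (0 without 100% SBT replicate 3), and the cause was not tested. After 2,5-DMP, which chose the genes, 3 of the 4 were called in the single fit of all libraries, where *Olfr699* had a log2 fold change of 1.97, against 1.955 in the fit of its own 6 libraries. The replicate block changed no call of the 4 genes.

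Sign changed in 40 settings of 18 values, all of which were uncalled and at most 0.33 in size. Without TMM factors, log2 fold changes of *Olfr693* were -0.13 after 1% SBT and -0.052 after 10 mM MTMT, that of *Olfr698* was -0.058 after CPD, and those of *Olfr699* were -0.012 after CPD and -0.018 after β-caryophyllene. *Olfr693* after 1% SBT was -0.011 by DESeq2, and *Olfr698* after 1% SBT was 0.017 in the single fit. With the replicate block, *Olfr699* was 0.043 after 1% SBT and -0.45 after β-caryophyllene. Leaving out single libraries gave ranges for *Olfr693* of -0.10 to 0.16 after (*E*)-β-farnesene, -0.15 to 0.20 after 0.01% SBT, -0.56 to 0.53 after 1% SBT and -0.064 to 0.31 after β-caryophyllene. For *Olfr694* they were -0.007 to 0.41 after 0.01% SBT, -0.39 to 0.14 after CPD and -0.18 to 0.17 after DHB. For *Olfr698* they were -0.02 to 0.29 after (*E*)-β-farnesene, -0.23 to 0.094 after 100 μM MTMT, -0.38 to 0.29 after 1% SBT, -0.44 to 0.52 after 10 mM MTMT, -0.10 to 0.43 after CPD and -0.26 to 0.028 after DHB. For *Olfr699* they were -0.54 to 0.12 after (*E*)-β-farnesene, -0.64 to 0.46 after 1% SBT and -1.35 to 0.60 after β-caryophyllene.

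Counts over all ORs moved by more than 1.5 times for 8 of the comparisons. They ran from 7 to 17 for 2,5-DMP, 8 to 28 for (*E*)-β-farnesene, 0 to 7 for 100 μM MTMT, 3 to 7 for 0.01% SBT, 0 to 28 for 1% SBT, 0 to 38 for 10 mM MTMT (38 without 10 mM MTMT replicate 1), 0 to 1 for CPD and 50 to 133 for 100% against 1% SBT. Depth limits *Olfr699* most, with 2 to 34 reads in the control libraries.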
